A study of Ovis aries with 32 samples.

Results

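The antioxidant and redox defence genes described here were taken from a list of 41 gene names in 8 roles, from the superoxide dismutases to the enzymes that supply NADPH. Of these, 38 had a row in the deposited table, and the values of all transcripts of a gene were added to give 1 gene sum. All 38 passed the filter on low values, a gene sum reaching 10 in 4 or more of the 32 libraries, which 12737 of the 21271 gene identifiers passed. SOD3 reached 10 in 29 libraries, MGST2 in 28 and the other members in all 32. GSR, GSTP1 and SELENOP are not analysed here, since no row carries those names.

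The libraries are bulk RNA-seq of cultured perirenal preadipocytes, the fat cell precursors around the kidney, from near-term fetuses of Columbia-Rambouillet crossbred ewes carrying singletons. Fetal growth restriction (FGR) was produced by keeping pregnant ewes at a raised ambient temperature, which causes placental insufficiency, and control ewes were pair-fed at a normal temperature. Preadipocytes came from control males (MC), control females (FC), growth-restricted males (MFGR) and growth-restricted females (FFGR), and each kind was also sequenced after culture to mature adipocytes (MCD, FCD, MFGRD and FFGRD). Each of the 8 groups has 4 libraries and the labels do not state whether a library number marks the same fetus before and after differentiation. Nothing in the labels says that the libraries of a group came from separate fetuses, so the p-values measure the spread between these libraries.

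Cells that store and burn fat release superoxide and hydrogen peroxide from mitochondria, peroxisomes and oxidases. Superoxide dismutases turn superoxide into hydrogen peroxide, and catalase, the glutathione peroxidases and the peroxiredoxins reduce peroxides. Glutathione and thioredoxin hand on the electrons for this, and NADPH made by a few dehydrogenases recharges both. The transcription factor NRF2, held in check by KEAP1, raises many of these genes when electrophiles accumulate.

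The normalized reads of a library summed to between 9.52M and 21.2M, and a value of 10 stood for 5.47 to 14.4 reads. Libraries differed in how their values depended on the genomic length of a gene, measured as the slope of log2 gene sum on log2 span. This span slope lay between 0.152 and 0.273 in 23 libraries and between -0.0856 and 0.0738 in the other 9, which were 4 preadipocyte and 5 differentiated libraries, 4 of controls and 5 of FGR. Of the 38 members, 30 correlated negatively with the span slope in both stages, that is, they tended to read higher where the slope was low. The slope is computed from the same gene sums, so shorter genes tend to read higher at low slope by construction. The share of all genes with such correlations was not computed, so the count is not read as a trait of the members. All 8 adipocyte markers rose with differentiation, and their mean on the log2 scale was 3.08 to 6.31 in preadipocytes and 4.54 to 11.85 in differentiated cells. FCD library 4, at 4.54, lay within the preadipocyte range. Summed adrenal cortex markers also moved with stage, from 1.39 to 89.1 normalized reads in preadipocytes and from 12.8 to 1353 in differentiated cells, with CYP11A1, CYP17A1 and STAR all called higher (3 of 3). Of the 5 tested preadipocyte and mesenchymal markers, THY1 and NT5E rose, PDGFRB fell, and PDGFRA and COL1A1 were not called. Of 4 myofibroblast markers 2 fell, and of 2 leukocyte markers 1 rose and 1 fell. Of 3 tested endothelial markers 1 fell, KDR, with a log2 fold change of -1.43 (limma adjusted p = 0.0289), and none rose. Endothelial markers summed to at most 284, the erythroid markers to at most 7.20 and the kidney tubule markers to at most 50.1, with UMOD at 0 throughout. The part of these markers in the results below was not tested, and in bulk RNA a smaller number of cells of a type cannot be told apart from less RNA per cell.

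Differentiation was compared first, averaged over the 4 kinds of preadipocytes (the arms MC, FC, MFGR and FFGR). A gene was called when its adjusted p from limma, fitted on log2(gene sum + 1), was below 0.05 and its fold change above 1.5. Of the 38 members, 13 were called, 10 of them higher and 3 lower in differentiated cells. That is 34.2% of the members beside 27.2% of all 12737 genes, with 12.4% of all genes called higher and 14.8% called lower. The median log2 fold change of the members was 0.24, beside 0.03 over all genes, and 25 of 38 were positive. The genes that rose were MGST1, MGST3, GPX3, TXNIP, GCLC, CAT, HMOX2, TXNRD1, PGD and SOD1. GPX7, GPX8 and ME1 fell. No member's 16 differentiated libraries lay wholly apart from the 16 preadipocyte libraries, a separation seen for 0.440% of all genes on the higher side and 0.652% on the lower side.

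**Figure D1:**
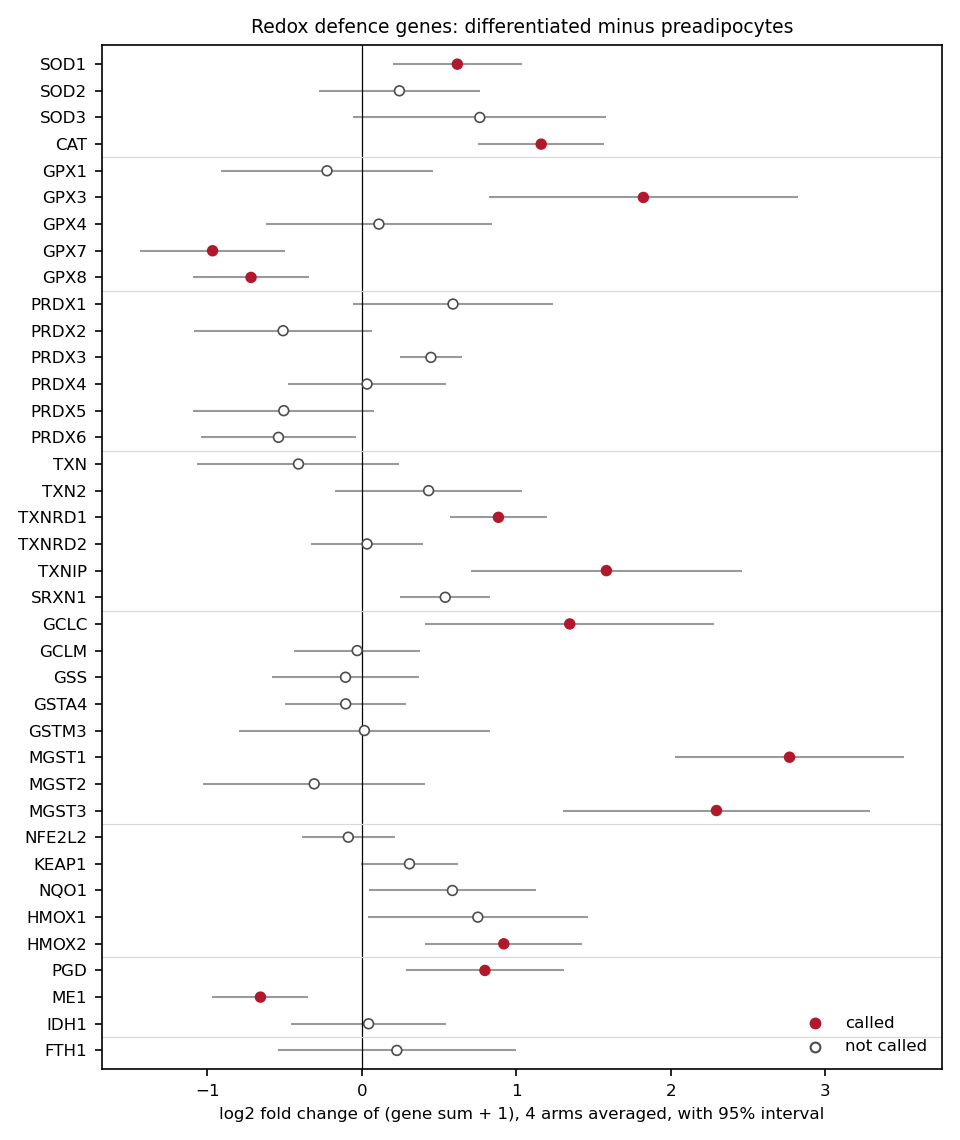
Log2 fold change of each of the 38 redox defence genes between differentiated cells and preadipocytes, averaged over 4 arms, with its 95% interval (horizontal lines) and with thin lines between the roles. Filled points mark the 13 called genes, which run from -0.97 for GPX7 to 2.77 for MGST1.

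Among the superoxide dismutases and catalase, 2 of 4 rose and none fell, with a median log2 fold change of 0.69. Catalase (CAT, chromosome 15, 70017528 to 70053465 in Oar_rambouillet_v1.0), the peroxisomal enzyme that splits hydrogen peroxide into water and oxygen, had the smaller p of the pair. Its values were 951, 782, 1135 and 1604 normalized reads in MC and 1631, 3106, 4888 and 5869 in MCD. In FC they were 1066, 1599, 938 and 1389, and in FCD 1457, 1942, 2321 and 2297. The MC and MCD libraries did not overlap, while those of FC and FCD did. MFGR libraries held 1703, 1278, 834 and 1352, and MFGRD libraries 4515, 1732, 1186 and 2262. FFGR gave 1016, 1215, 1046 and 1348, and FFGRD 3932, 1681, 6045 and 2777. FFGR and FFGRD lay apart, and 12 of the 16 differentiated libraries were above every preadipocyte library. The share of all genes whose groups lie apart within an arm was not counted, for this gene or those below. The log2 fold change of CAT was 1.16 (SE 0.20, adjusted p = 4.41e-05), with 0.99 in the 23 libraries of higher span slope and 1.53 in the other 9. Here and below, the fit of the 23 averages 4 arms. That of the 9 compares 5 differentiated with 4 preadipocyte libraries regardless of arm. MCD but not MC is among the 9, so arm and stage are mixed there and the values of the sets are not strictly alike.

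SOD1, the cytosolic copper and zinc superoxide dismutase, rose by 0.62 on the log2 scale (SE 0.20, adjusted p = 0.0203), with 644 to 2255 (median 978) in preadipocytes and 1129 to 4492 (median 1456) in differentiated cells. It is the call nearest the limits, since its fold change fell under 1.5 or its adjusted p over 0.05 when any 1 of 7 libraries was left out. In the 9 libraries of lower span slope it was 0.60 with an adjusted p of 0.16. SOD2, the mitochondrial manganese enzyme, ranged over 372 to 1711 (median 914) in preadipocytes and 534 to 4714 (median 837) in differentiated cells (0.24, adjusted p = 0.515). SOD3, the secreted enzyme, had a log2 fold change of 0.76 with a wide error (SE 0.40, adjusted p = 0.15).

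The glutathione peroxidases moved in both directions, with 1 of 5 rising and 2 falling and a median of -0.23. GPX3, the secreted plasma peroxidase (chromosome 5, 65009331 to 65016786), was the one that rose. In MC it stood at 383, 1610, 1121 and 13910, against 8311, 11440, 42680 and 64230 in MCD. FC had 5900, 17050, 969.9 and 8906, against 6881, 3516, 17140 and 14150 in FCD. The FC and FCD ranges overlapped almost wholly, while in MC 3 of the 4 libraries lay under every MCD library. MFGR had 19940, 7949, 3438 and 5193, against 72130, 21200, 9896 and 16300 in MFGRD. FFGR had 2039, 23120, 22170 and 13370, against 36400, 21880, 45550 and 14810 in FFGRD. GPX3 overlapped between the stages in each of the 4 arms. Its log2 fold change was 1.82 (SE 0.49, adjusted p = 0.00462). It was 2.19 (adjusted p = 0.00387) in the 23 libraries and 0.25 (adjusted p = 0.84) in the 9, so it was called in the first set and not in the second.

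GPX7 and GPX8, which act in the endoplasmic reticulum where secreted proteins are folded, fell. GPX7 (chromosome 1, 28629586 to 28636746) held 851, 730.3, 837 and 876 in MC and 456, 518, 532 and 258 in MCD. For FC the values were 909, 1792, 574 and 920.2, with 298, 409, 459.5 and 829 in FCD. MCD lay below MC without overlap, and in FCD only library 4 reached the range of FC. For MFGR the values were 1528, 716, 745 and 508, with 981, 556, 405 and 315 in MFGRD. For FFGR the values were 763, 1768, 1577 and 714, with 262, 331, 1299 and 453 in FFGRD. Of the 16 differentiated libraries, 10 lay under every preadipocyte library, and MFGRD library 1 and FFGRD library 3, both of low span slope, stood well above the rest of their groups. GPX7 fell by 0.97 on the log2 scale (SE 0.23, adjusted p = 0.00159), with -0.80 in the 23 libraries and -1.5 in the 9. GPX8 fell by 0.72 (SE 0.18, adjusted p = 0.00291), with 1309 to 3448 (median 1627) in preadipocytes and 625 to 2437 (median 1236) in differentiated cells. Within the 23 libraries its log2 fold change of -0.50 no longer reached 1.5-fold (adjusted p = 0.0146). GPX4, which reduces lipid peroxides in membranes, ranged over 2004 to 20740 (median 3208) in preadipocytes and 2489 to 22800 (median 3828) after differentiation (0.11, adjusted p = 0.854). GPX1, the main cytosolic peroxidase, was at -0.23 (adjusted p = 0.666).

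None of the 6 peroxiredoxins was called, their median was -0.24, and their log2 fold changes ran from -0.54 for PRDX6 to 0.59 for PRDX1. PRDX1, the abundant cytosolic form, was called with the library number as a block (adjusted p = 0.0483), beside an adjusted p of 0.159 without it. PRDX3, the mitochondrial peroxiredoxin, passed the p threshold but not the fold limit (0.45, SE 0.10, adjusted p = 0.000791). Its values were tight, 279.9 to 332 (median 311) in preadipocytes against 309 to 666 (median 402) in differentiated cells, and 15 of 16 differentiated libraries lay above every preadipocyte library. PRDX6, which also has phospholipase activity, ranged over 4705 to 26510 (median 9146) and 3534 to 13110 (median 6096) (adjusted p = 0.0913). PRDX2, the cytosolic form, stood at -0.51 and PRDX5, found in several compartments, at -0.51, both lower with adjusted p of 0.176 and 0.187. Both were called lower in the 9 libraries of low span slope, at -1.23 and -1.05. PRDX4, the peroxiredoxin of the endoplasmic reticulum, was at 0.03 (adjusted p = 0.942).

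In the thioredoxin system 2 of 6 members rose, and the median was 0.49. TXNIP (chromosome 1, 105021777 to 105024615), which binds and inhibits thioredoxin and limits glucose uptake, had 1893, 626, 2690 and 3212 in MC and 3923, 2130, 4937 and 3471 in MCD. The FC libraries had 76.9, 1527, 1412 and 2293, and the FCD libraries 4240, 1528, 3794 and 894. FC library 1 was far below the other 3, and FCD library 4 was the lowest of all differentiated libraries. The MFGR libraries had 2002, 3067, 611 and 1856, and the MFGRD libraries 2953, 4699, 3247 and 4744. The FFGR libraries had 145, 387, 1106 and 3361, and the FFGRD libraries 5967, 5414, 2202 and 5194. Differentiated values of TXNIP were the more even, and each arm kept some overlap. Its log2 fold change was 1.58 (SE 0.43, adjusted p = 0.0048), 1.92 in the 23 libraries and 1.14 in the 9 (adjusted p = 0.0785).

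TXNRD1, the cytosolic reductase that recharges thioredoxin with NADPH, rose by 0.88 (SE 0.15, adjusted p = 5.54e-05), with 651 to 2156 (median 1372) in preadipocytes and 1637 to 4143 (median 2499) in differentiated cells. By arm TXNRD1 stood at 0.89 in MC, 1.07 in FC, 0.37 in MFGR and 1.21 in FFGR, and its groups did not overlap in the MC, FC and FFGR arms. It has 2 transcripts in the table, and the minor one, with 1.60% of the gene's signal in differentiated cells, rose by 2.13 on the log2 scale (adjusted p = 0.0163) beside 0.87 for the main one. SRXN1, which repairs over-oxidized peroxiredoxins, was higher by 0.54 with an adjusted p of 0.00392, short of 1.5-fold. TXN, thioredoxin itself, ranged over 1741 to 10700 (median 2625) in preadipocytes and 1249 to 11630 (median 1861) in differentiated cells (-0.41, adjusted p = 0.362). The mitochondrial pair TXN2 and TXNRD2 stood at 0.43 and 0.03 and was not called.

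The glutathione synthesis and transferase genes held the 2 largest changes, with 3 of 8 measured members rising and none falling, yet their median was -0.01. MGST1 (chromosome 3, 213542923 to 213564539), a membrane-bound transferase with peroxidase activity that conjugates glutathione to reactive lipids, changed most. Its values were 747, 384, 778 and 1962 in MC and 3058, 9264, 10270 and 21470 in MCD. FC gave 149, 1501, 754 and 850.3, and FCD 3735, 3651, 4632 and 1643. Both control arms separated without overlap, FCD library 4 being the lowest differentiated library. MFGR gave 2323, 1538, 430.3 and 1071, and MFGRD 9859, 3538, 3123 and 3843. FFGR values were 220.4, 1170, 1574 and 572, and FFGRD values 7925, 4033, 17910 and 3489. MGST1 was the only one of the 13 called members whose groups lay apart in all 4 arms, and 15 of its 16 differentiated libraries exceeded every preadipocyte library. How many of all genes lie apart in all 4 arms was not counted. It rose by 2.77 on the log2 scale (SE 0.36, adjusted p = 9.77e-07), by 2.81 in the 23 libraries and by 2.72 in the 9.

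MGST3 (chromosome 1, 125155474 to 125177511), a related membrane transferase, stood at 113, 103, 133 and 200.3 in MC and at 324, 4112, 1975 and 6615 in MCD. In the female controls it was 122, 376, 107 and 124 before and 336, 934, 628 and 105 after differentiation. The MC arm separated completely, but FCD library 4 was lower than all 4 FC libraries. In MFGR it was 467, 172, 74.4 and 126, and in MFGRD 2860, 471, 197 and 287. In FFGR it was 114, 537, 367 and 87.9, and in FFGRD 1187, 548, 7995 and 245. The 4 highest preadipocyte values of MGST3 were those of the 4 libraries of low span slope, and in differentiated cells its median was 4112 in the 5 such libraries against 336 in the other 11. The log2 fold change of MGST3 was 2.30 (SE 0.49, adjusted p = 0.000503), 1.90 in the 23 libraries and 3.05 in the 9. MGST2, the third microsomal transferase, was low throughout, at 9.66 to 128 (median 19.7) and 4.15 to 101 (median 17.4) (-0.31, adjusted p = 0.556).

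GCLC (chromosome 20, 8553592 to 8596894), the catalytic subunit of the enzyme that sets the rate of glutathione synthesis, differed between arms. It was 585, 218, 764 and 172 in MC and 419.8, 429.9, 308 and 111 in MCD. For female controls it was 151, 45.9, 425 and 379 in FC and 1038, 235, 748 and 4062 in FCD. In the MC arm the values overlapped, with a log2 difference of -0.36, while FCD library 4 held the highest GCLC value of the 32 libraries. Growth-restricted males had 64.1, 402, 159 and 213 in MFGR and 164, 568, 675 and 764 in MFGRD. Growth-restricted females had 163, 23.7, 36.8 and 129.9 in FFGR and 292, 282, 44.6 and 1258 in FFGRD. The 4 lowest preadipocyte values of GCLC came from the 4 libraries of low span slope, the reverse of MGST3. Over the 4 arms it rose by 1.35 (SE 0.46, adjusted p = 0.0234), and by 1.17 without FCD library 4 (adjusted p = 0.0435). Of its 3 transcripts, 1 was called, at 1.73 (adjusted p = 0.0423), and the most abundant was not, at 1.17 (adjusted p = 0.299). GCLM, the regulatory subunit of the same enzyme, stood at -0.03 (SE 0.20, adjusted p = 0.935), and GSS, which adds the last residue of glutathione, at -0.11 (adjusted p = 0.779). The transferase GSTM3 ranged over 124 to 1268 (median 286) in preadipocytes and 107 to 2179 (median 355) in differentiated cells (0.02), and GSTA4, which conjugates the lipid aldehyde 4-hydroxynonenal, was at -0.10.

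In the NRF2 axis with its quinone and heme enzymes, 1 of 5 members rose, and the median was 0.59. HMOX2 (chromosome 24, 3683524 to 3711896), the constitutive heme oxygenase, had 466, 411, 484 and 695 in MC and 809, 2334, 1522 and 2720 in MCD. Female control values were 771, 1060, 336 and 505 in FC and 915, 1778, 788 and 797 in FCD. All MCD libraries exceeded all MC libraries, whereas FC library 2 exceeded 3 of the FCD libraries. Growth-restricted male values were 1053, 634, 432 and 483 in MFGR and 2680, 923, 714 and 664 in MFGRD. Growth-restricted female values were 1012, 1199, 1416 and 562 in FFGR and 1264, 755, 3893 and 939 in FFGRD. The highest value of HMOX2 in 7 of the 8 groups came from a library of low span slope, MC having none. It rose by 0.92 (SE 0.25, adjusted p = 0.0048), by 0.69 in the 23 libraries and by 1.14 in the 9. HMOX1, the inducible heme oxygenase, had 0.75 (SE 0.35, adjusted p = 0.0998), and the quinone reductase NQO1 0.59 (SE 0.26, adjusted p = 0.0908). NFE2L2, the gene of NRF2, ranged over 1032 to 3399 (median 2144) in preadipocytes and 1385 to 3231 (median 1890) in differentiated cells (-0.09, adjusted p = 0.702). KEAP1 was at 0.31 (adjusted p = 0.128).

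The NADPH suppliers split, with 1 rising, 1 falling and 1 not called. PGD, the third enzyme of the pentose phosphate pathway, rose by 0.80 (SE 0.25, adjusted p = 0.0138), with 1332 to 3974 (median 2385) in preadipocytes and 1907 to 14850 (median 2962) in differentiated cells. ME1, the cytosolic malic enzyme that also feeds fatty acid synthesis, fell by 0.66 (SE 0.15, adjusted p = 0.00125), with 2513 to 9301 (median 4342) in preadipocytes and 1285 to 4912 (median 2927) in differentiated cells. PGD was highest in FFGRD library 3 and MFGRD library 1, both of low span slope, and stood at 1.41 in the MC arm, 0.33 in FC, 0.29 in MFGR and 1.16 in FFGR. ME1 stood at -0.90 in MC, -0.64 in FC, -1.10 in MFGR and 0.02 in FFGR. Of the 16 differentiated libraries, 15 lay below the preadipocyte median of ME1. IDH1, the cytosolic isocitrate dehydrogenase, ranged over 864 to 3650 (median 1376) in preadipocytes and 653 to 5132 (median 1339) in differentiated cells (0.04, adjusted p = 0.92). FTH1, the heavy chain of the iron store ferritin, ranged over 7866 to 82580 (median 12460) and 9049 to 77770 (median 19530) (0.23, adjusted p = 0.7).

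**Figure D2:**
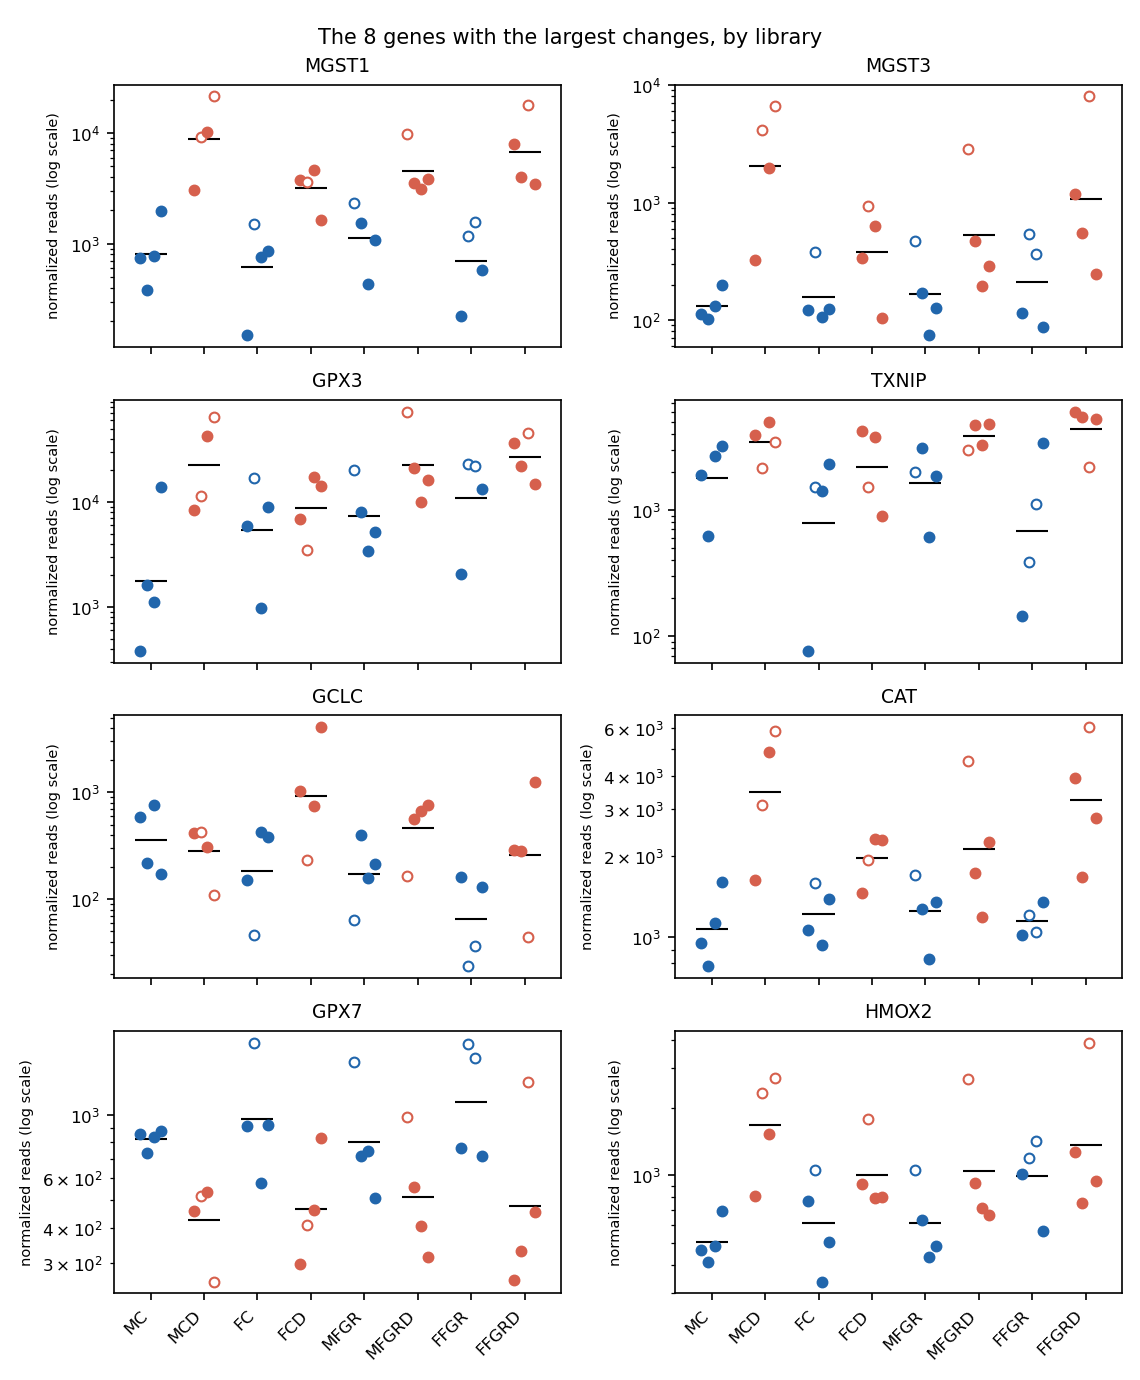
Normalized reads (log scale) of the 8 genes with the largest called changes in each library, by group, with preadipocytes in blue, differentiated cells in red and a bar at the geometric mean of the 4 libraries. Open points are the 9 libraries of low span slope. The groups of MGST1 lie apart in all 4 arms.

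All 13 called members kept their direction in the 23 libraries of higher span slope, in the other 9, and without FCD library 4. These sets are parts of the libraries in which the 13 were chosen, so the agreement is not separate evidence. The split by span slope was made after the values had been seen, and the share of all genes called in each set is not given here. In the 23 libraries 12 of the 13 were called, all but GPX8. In the 9 libraries 8 of the 13 were called, and GPX3, TXNIP, PGD, SOD1 and ME1 were not. Without FCD library 4 all 13 were called, together with NQO1 (0.67, adjusted p = 0.0499) and SRXN1 (0.59, adjusted p = 0.00191).

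Arm by arm, with 4 libraries at each stage, fewer members were called. Here and for each arm below, counts under settings other than the main fit lack the share of all genes called there. Such counts are not read as a result about the members. In the MC arm 5 members were called, all higher, beside 8.35% of all genes called, 3.80% higher and 4.55% lower. These were MGST1 (3.45, adjusted p = 0.00262), MGST3 (3.94, adjusted p = 0.00944), GPX3 (3.68, adjusted p = 0.0166), HMOX2 (1.73, adjusted p = 0.0276) and CAT (1.69, adjusted p = 0.00678). The count depended on single libraries, being 2 without MCD library 4, 3 without MC library 1, MC library 3 or MCD library 3, and 9 without MCD library 1. With the library number as a block it was 8, ME1, PGD and TXNRD1 being added. MC has no library of low span slope and MCD has 2. In the 23 libraries of higher span slope the count of this arm was again 5, but GPX3 was no longer called and TXNRD1 was (0.85, adjusted p = 0.0477), while MGST3 stood at 2.58 (adjusted p = 0.0309), MGST1 at 2.78, CAT at 1.39 and HMOX2 at 1.14.

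In the FC arm no member was called by limma, beside 2.52% of all genes (1.08% higher and 1.44% lower), and 7 members had an unadjusted p below 0.05. TXNRD1 (1.07, adjusted p = 0.0582), MGST1 (2.37, adjusted p = 0.0748) and GCLC (2.33, adjusted p = 0.186) came nearest. These 3 were called with the library number as a block, and TXNRD1 alone was called without FCD library 4 (1.25, adjusted p = 0.0393).

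In the MFGR arm 1 member was called, ME1, which fell by 1.10 (adjusted p = 0.0298), beside 5.13% of all genes called, 2.03% higher and 3.10% lower. The call was lost without MFGR library 2 or 4 and without MFGRD library 1, 2 or 3. MGST1 stood at 2.0 (adjusted p = 0.115) and was called as well with the library number as a block (adjusted p = 0.0399). IDH1 had -1.05 (SE 0.49, adjusted p = 0.26) and GCLM -0.87 (SE 0.40, adjusted p = 0.248), both below their values of the MC arm, 0.90 and 0.29.

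In the FFGR arm 5 members were called, all higher, beside 10.3% of all genes called, 4.33% higher and 5.99% lower. They were MGST1 (3.27, adjusted p = 0.00381), TXNIP (2.69, adjusted p = 0.041), CAT (1.5, adjusted p = 0.0146), TXNRD1 (1.21, adjusted p = 0.0111) and PRDX3 (0.63, adjusted p = 0.04). The count was 1 without FFGRD library 1, 2 without FFGR library 2 and 3 without FFGR library 1 or 3, and a fit on the 8 libraries of the arm alone gave 0. In the 23 libraries of higher span slope 4 members were called, MGST1 (3.76), MGST3 (2.42, adjusted p = 0.0489), SOD1 (0.82, adjusted p = 0.043) and TXNRD1 (1.08), and TXNIP, CAT and PRDX3 were not. The median log2 fold change of the 38 members was 0.67 in the MC arm, 0.09 in FC, 0.18 in MFGR and 0.23 in FFGR, beside -0.02, 0.02, 0.06 and 0.02 over all genes. Span slope was low in MCD libraries 2 and 4 but in no MC library. In the FFGR arm it was low in FFGR libraries 2 and 3 and in FFGRD library 3. Span slope and stage are thus partly confounded in these 2 arms, and the part of span slope in the arm medians was not tested. Of the 13 members called over all arms, 11 kept one direction in all 4. The exceptions were GCLC, at -0.36 in the MC arm, and ME1, at 0.02 in the FFGR arm.

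**Figure D3:**
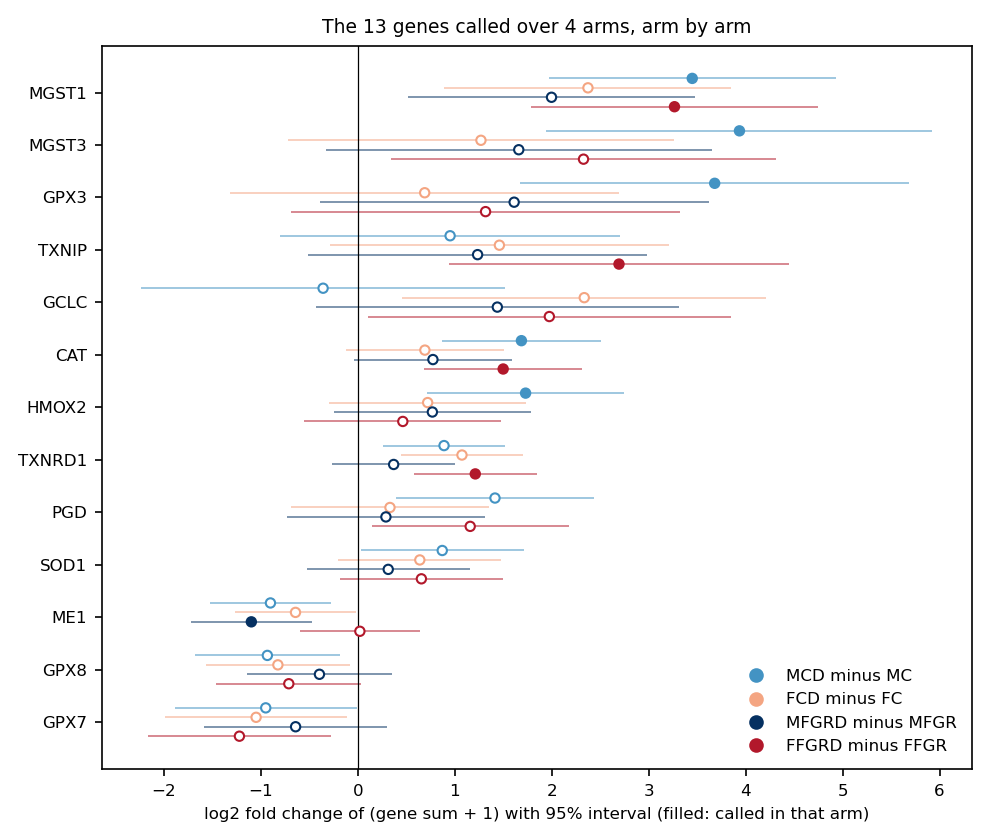
Log2 fold change with differentiation in each arm for the 13 members called over 4 arms, with 95% intervals. Filled points are called in that arm. GCLC is below 0 in the MC arm, and ME1 sits at 0.02 in the FFGR arm.

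Growth restriction was then compared within each stage, 8 FGR against 8 control libraries with both sexes weighted equally. Limma called none of the 38 members in preadipocytes (0% of all genes called) and none in differentiated cells (also 0%). At an unadjusted p below 0.05 there was 1 member of 38 in preadipocytes and none in differentiated cells, beside 344 and 136 of the 12737 genes. GPX3 was that member, with a log2 fold change of 1.53 in preadipocytes (95% interval 0.11 to 2.94, adjusted p = 0.84). From the values by library above, GPX3 was lowest in MC libraries 1 to 3 and in FC library 3, and the FGR and control ranges overlapped. In the 23 libraries of higher span slope the difference was 1.03. GCLC stood at the other end with -1.26 (-2.59 to 0.06), and at -0.79 in the 23 libraries.

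The median over the 38 members was 0.26 in preadipocytes, with 28 positive, beside -0.02 over all genes. It was -0.06 with span slope as a covariate and -0.06 in the 23 libraries. Of the 8 FGR preadipocyte libraries, 3 had a low span slope, against 1 of the 8 controls. Span slope and growth restriction are thus partly confounded in preadipocytes, and the part of either in the shift was not tested. GPX4 (0.83), FTH1 (0.75) and MGST2 (0.67) were the next highest after GPX3, and stood at 0.19, 0.22 and -0.20 in the 23 libraries. The 95% interval lay within 1 log2 unit of 0 for 16 of 38 members in preadipocytes and for 22 in differentiated cells. For the others a difference of 2-fold was not resolved with these libraries.

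In differentiated cells the members' median was -0.05, with 16 of 38 positive, beside -0.01 over all genes. Single libraries turned its sign, since it was -0.24 without FFGRD library 3 and 0.07 without FFGRD library 2. In preadipocytes the median fell to 0.09 without FFGR library 2. The differences ran from -0.54 for GCLC to 0.80 for GPX3. MGST1, which changed most with differentiation, differed by 0.05 (-1.0 to 1.09), and CAT by 0.01 (-0.57 to 0.59). The interval of CAT thus lay within 1 log2 unit, and that of MGST1 reached just beyond it.

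**Figure D4:**
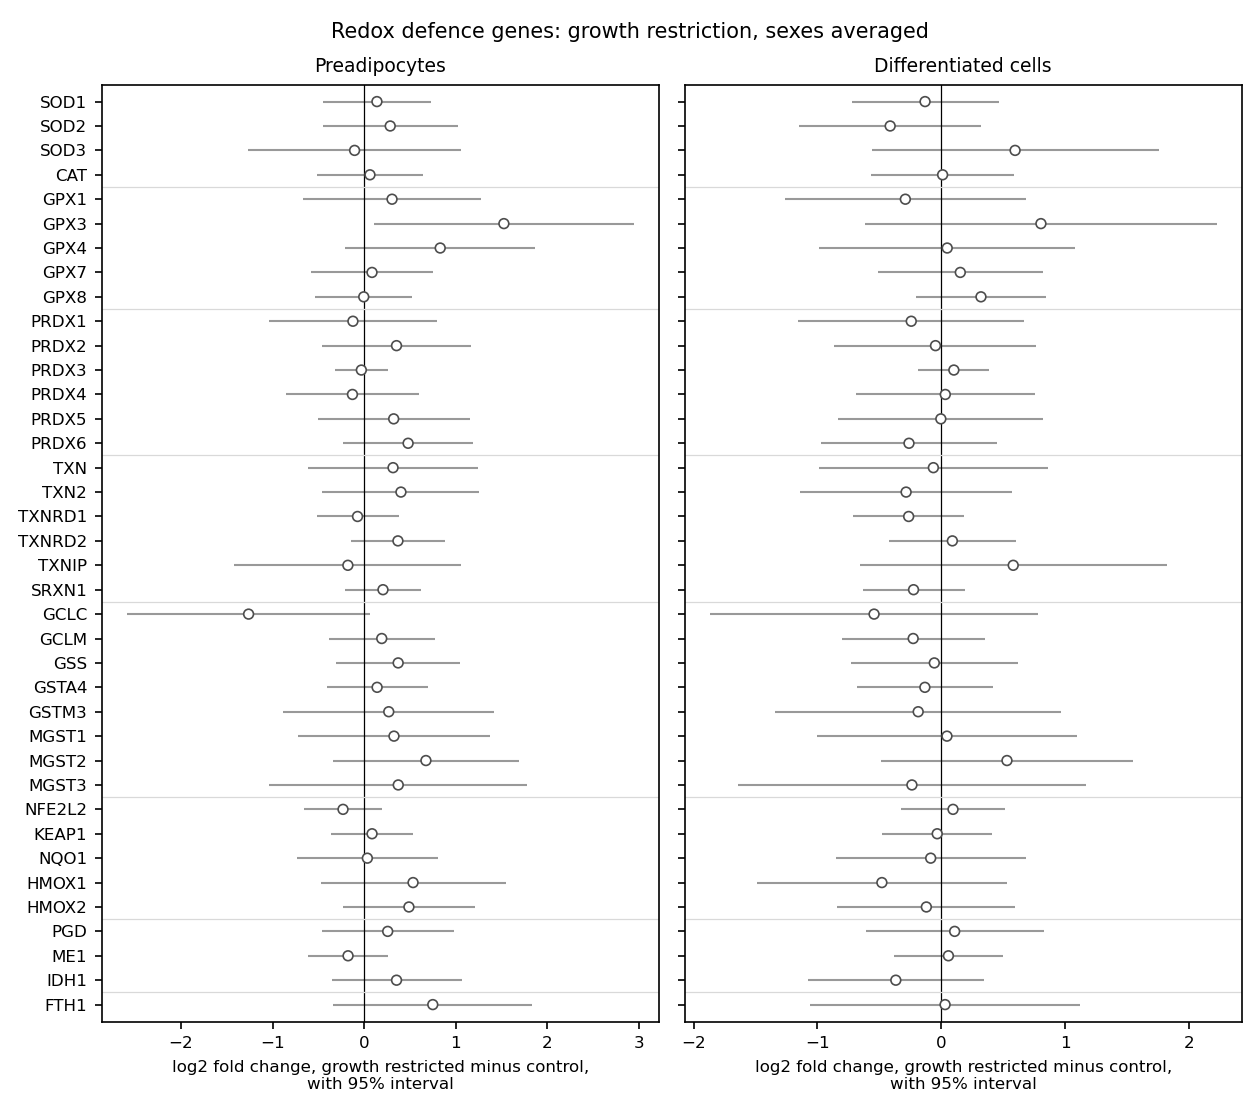
Log2 difference between growth-restricted and control libraries for the 38 members, sexes averaged, in preadipocytes (left) and differentiated cells (right), with 95% intervals. No point is filled, since none was called. GPX3 is the highest in both panels, at 1.53 and 0.80, and GCLC the lowest.

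Within each sex the growth restriction comparisons, 4 against 4 libraries, called no member either, with 0% of all genes called in each. Members with an unadjusted p below 0.05, given with their 95% intervals, were GPX3 in male preadipocytes (2.05, 0.04 to 4.06), IDH1 in male differentiated cells (-1.34, -2.34 to -0.33) and SOD3 in female differentiated cells (1.79, 0.15 to 3.43). Female preadipocytes had none. The median of the members was -0.46 between MFGRD and MCD and 0.21 between FFGRD and FCD. With span slope as a covariate these became -0.24 and 0.13.

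Whether the response to differentiation differed with growth restriction was tested as an interaction, and limma called none of the 38 members and 0% of all genes. The unadjusted p was below 0.05 for 2 members among males and for none among females or in both sexes together. The male ones were IDH1, whose response was lower in MFGR than in MC by 1.94 on the log2 scale (-3.36 to -0.53), and GCLM, lower by 1.16 (-2.32 to -0.0042). Both had an adjusted p of 0.995. MGST3, at 3.94 in the MC arm and 1.66 in the MFGR arm, had an interaction of -2.28 (-5.09 to 0.54).

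Sex was compared with growth groups weighted equally, males minus females. No member was called at either stage by limma (0% of all genes at each). In preadipocytes 4 members had an unadjusted p below 0.05, beside 550 of the 12737 genes. These were ME1 (0.79, 0.35 to 1.23), GCLM (0.95, 0.38 to 1.53) and TXNRD1 (0.52, 0.07 to 0.97) on the male side and MGST2 (-1.07, -2.09 to -0.05) on the female side, all with an adjusted p of 0.846. In differentiated cells there was none.

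Members were also set beside the extent of adipocyte gene expression in the 16 differentiated libraries, a relation added after the values had been seen. The mean of the 8 adipocyte markers left a gap between 10.0 and 11.2, with 10 libraries below it and 6 above. Within the 10 libraries, 0 of 38 relations passed an adjusted permutation p of 0.05 and 8 had an unadjusted p of Pearson's r below 0.05. The libraries of MCD, FCD, MFGRD and FFGRD were pooled and permuted regardless of group. The permutation p therefore does not measure a relation within a group. The highest r was that of MGST1 (Pearson r = 0.857, permutation p = 0.0131, adjusted p = 0.121), with Spearman rho = 0.564 (permutation p = 0.0972, adjusted p = 0.492). Without the 2 libraries farthest from the median of the markers r was -0.00306, so the relation of MGST1 rested on those libraries, FCD library 4 among them. For IDH1, r was 0.744 (permutation p = 0.00378, adjusted p = 0.121) and rho 0.794 (permutation p = 0.00868, adjusted p = 0.136), and r remained at 0.691 without 2 libraries. GCLC ran the other way (r = -0.705, permutation p = 0.0348, adjusted p = 0.189, and rho = -0.43, permutation p = 0.22, adjusted p = 0.492), with r = -0.358 without 2 libraries. The rest of the 8, with r without 2 libraries given second, were SOD3 (0.765, 0.701), PGD (0.753, 0.548) and TXNRD1 (0.671, 0.623). MGST3 (0.737, 0.306) and PRDX2 (-0.634, -0.51) were also among them. In the 6 libraries no relation had an unadjusted exact permutation p below 0.05.

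**Figure D5:**
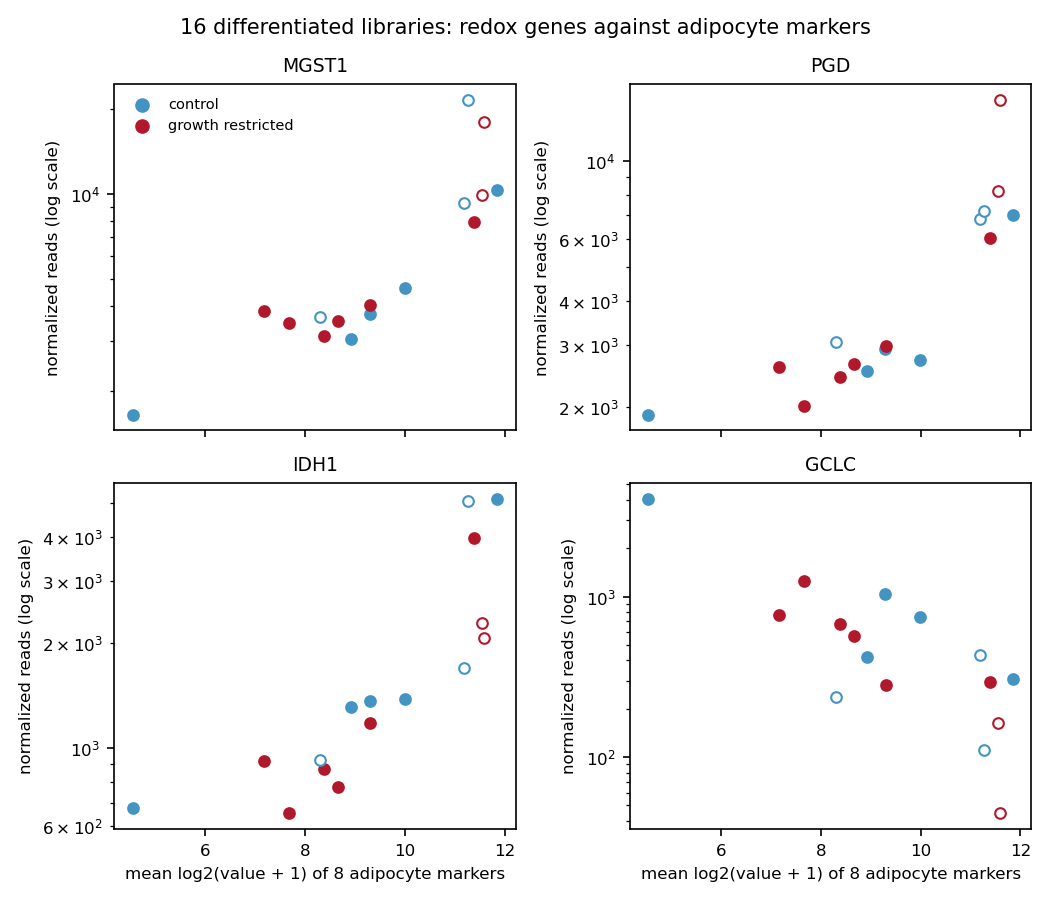
Normalized reads (log scale) of MGST1, PGD, IDH1 and GCLC against the mean log2(value + 1) of 8 adipocyte markers in the 16 differentiated libraries, controls in blue and growth-restricted in red, with open points for low span slope. The libraries fall below and above a gap between 10.0 and 11.2, and the lone point at 4.54 is FCD library 4.

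Genes of the same pathways outside the list of members were counted in 6 further lists, of which 72 of 97 genes could be tested. With differentiation 10 of these rose and 12 fell, beside 12.4% and 14.8% of all genes. The list medians were -0.19 for NRF2 targets and regulators, 0.03 for other NADPH suppliers, -0.15 for glutathione and glutaredoxin genes, -0.30 for reductases and selenoproteins, -0.05 for producers of oxidants and 0.65 for stress and metal-binding genes. Among 16 NRF2 targets and regulators none rose and 3 fell, led by OSGIN1 (-2.15, adjusted p = 0.000144), an oxidative stress induced growth inhibitor, and BACH1 (-0.95, adjusted p = 0.0337), a repressor of HMOX1, with the autophagy receptor SQSTM1 (-0.64) as the other one. Among 12 other NADPH suppliers 1 rose, RPIA of the pentose phosphate pathway (0.86, adjusted p = 0.00634), and 3 fell, led by the mitochondrial ALDH1L2 (-1.22, adjusted p = 0.0435) and ME3 (-1.06, adjusted p = 0.00198) and including the mitochondrial IDH2 (-0.79). The 12 other glutathione and glutaredoxin genes held 2 that rose, GGT5 (1.66, adjusted p = 0.00545), which cleaves glutathione conjugates, and GLO1 (0.70, adjusted p = 4.08e-05), which clears methylglyoxal. None of these 12 fell.

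Of 9 methionine sulfoxide reductases and other selenoprotein genes, 3 fell and none rose. PSTK, which makes the precursor of selenocysteine transfer RNA, was at -1.23 (adjusted p = 0.000273) and SELENOM, a selenoprotein of the endoplasmic reticulum, at -1.02 (adjusted p = 0.0267). MSRB3, which reduces oxidized methionine in proteins, was at -0.77 (adjusted p = 0.000191). The 10 producers of superoxide and peroxide split evenly. MAOA (1.96, adjusted p = 1.59e-07), the mitochondrial amine oxidase that yields hydrogen peroxide, and AOX1 (1.85, adjusted p = 0.00174), an aldehyde oxidase, rose, and the NADPH oxidase subunits CYBA (-1.34, adjusted p = 0.00417) and NCF4 (-1.25, adjusted p = 0.0158) fell. Among 13 stress sensors, sestrins and metal-binding genes 5 rose and 1 fell. The mitochondrial carrier UCP2 (4.39, adjusted p = 4.4e-05) and the metallothionein MT1A (4.21, adjusted p = 0.000359) rose most. The sestrin SESN1 (1.92), the forkhead factor FOXO1 (2.25) and the coactivator of mitochondrial biogenesis PPARGC1A (1.46) also rose, and SESN2, another sestrin, fell (-0.80, adjusted p = 0.0498). In both growth restriction comparisons none of the 72 genes was called, as none of the members was.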

How the data were processed

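Cultured fetal sheep cells were profiled by RNA-seq in 32 libraries, 4 in each of 8 groups taken from the sample labels. The authors discarded reads with low mean quality, quantified transcripts with Salmon against Oar_rambouillet_v1.0 and normalized with DESeq2. FastQC 0.11.9 is named in the submitters' processing notes. The authors deposited a signal per transcript and library, in normalized reads that are not whole numbers, together with group means. Deposited fold change scores and p-value columns of the authors' own comparisons were not used. The extraction text in the labels speaks of adipose tissue, while the sample labels name preadipocytes.

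Transcripts were summed per gene identifier (8509 of 35219 transcripts carry no gene name). Genes with a sum of at least 10 in at least 4 libraries were fitted as log2(sum + 1) in limma 3.58.1 (R 4.3.3), in 1 model of 8 group means with an empirical Bayes trend. The log2 scale with a pseudocount of 1 understates changes of low genes. Adjusted p-values of the main fit are Benjamini-Hochberg over all 12737 genes, and 16 contrasts were made. Those of transcripts are over the 19469 transcripts tested, and those of the marker relations over 38 members. Fits on fewer libraries, with another filter or on the highest transcript adjust over the genes that pass there. Relations with adipocyte markers used 100000 permutations, or exact permutations under 10 libraries. The limma contrasts were run on simulated data with independent noise for each gene and no effect of span slope, and the outcome is not given here. The permutation step was not tested in this way. The members, lists and tests were chosen with earlier results of these data known.

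Values in every library are given for the 8 called members with the largest absolute change over 4 arms, and ranges for the uncalled member of each role with the highest mean. Same-numbered libraries before and after differentiation were compared through their deviations from group means. These correlations were 0.162 to 0.615 in the MC arm, 0.303 to 0.508 in FC and 0.393 to 0.671 in MFGR. Best with their own number were 3 of 4 libraries in MC and 4 of 4 in FC and MFGR. The numbers were taken to pair libraries there, and blocked counts stand beside those results. Standard errors and p-values are from the fit without pairs unless a block is named. In FFGR they ran from -0.398 to 0.565. Alternatives covered the pseudocount, quantile normalization, filters, library weights, the highest transcript, the span slope and leaving out each library. No 2 libraries held identical values.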

Additional observations from a re-analysis of the deposited data

Results flagged for a closer look

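Of 64 combinations of 8 genes and 8 groups, 3 had 1 library standing apart from the other 3, its gap to the nearest passing Dixon's critical value for the range on the log2(value + 1) scale. The values below are normalized reads, on which the ratio differs. Chance gives about 1 in 20 of such groups. MGST3 in FC library 2 was 376.1 normalized reads, against 106.8 to 123.9 in the other FC libraries. This library has a low span slope. TXNIP in FC library 1 was 76.86, against 1412 to 2293. TXNIP in FFGRD library 3, also of low span slope, was 2202, against 5194 to 5967. Without FC library 1 the 4-arm log2 fold change of TXNIP was 1.31, the lowest over the leave-one-out fits, and it was called in each of them.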

How the results depend on the processing

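The number of members called with differentiation over 4 arms was 13 and stayed between 12 and 15 under each alternative, 12 to 15 when 1 library was left out. All 13 genes kept their direction under each alternative, but the alternatives reuse the libraries in which the 13 were chosen. The counts of single arms moved more. They are given without the share of all genes called under the same setting, so their moves are not read as a result about the members. In the MC arm (5) the count was 8 with the replicate block, 13 with the span slope as a covariate, 13 with library weights and 2 to 9 leaving out 1 library. In the FC arm (0) it was 2 with quantile normalization, 3 with the replicate block, 9 with the span slope, 6 with library weights, 4 in the 23 libraries of higher span slope (5, 1 and 4 in the MC, MFGR and FFGR arms) and 0 to 1 leaving out 1 library (1 without FCD 4, MFGR 1, FFGR 2, FFGRD 1 or FFGRD 3). In the MFGR arm (1) it was 0 on the arm's own libraries, 2 with the replicate block, 4 with the span slope, 4 with library weights and 0 to 1 leaving out 1 library. In the FFGR arm (5) it was 3 with quantile normalization, 3 with no filter, 0 on its own libraries, 8 with the replicate block, 13 with the span slope, 3 with library weights and 1 to 6 leaving out 1 library. The cause was not tested. In FFGR only 2 of 4 libraries correlated best with their own number, so the numbers were not taken as pairs there. Over 4 arms the replicate block gave 14, PRDX1 being added. This count and the blocked count of 8 in FFGR still use the FFGR numbers as pairs. Growth restriction, interaction and sex gave 0 members under each alternative run, and the block changed no call there. For growth restriction and sex the block was the library number shared over all groups. Nothing ties equal numbers of different arms to each other, so no conclusion is drawn from that block. The relation with adipocyte markers passed for 0 members, and for 0 to 1 leaving out 1 library (1 without MFGRD 4).

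Over 4 arms, single calls lost among the 13 were GCLC with the highest transcript (1.17), GPX8 with library weights (-0.55) and in the 23 libraries (-0.50), and ME1 with quantile normalization (-0.57). In the 9 libraries of low span slope GPX3, TXNIP, PGD, SOD1 and ME1 lost theirs. Leaving out 1 library, 408 calls held and 8 were lost, 7 of SOD1 and 1 of ME1 (-0.58, without FCD library 2). Values near 10 rest on 5.47 to 14.4 reads, which limits SOD3 and MGST2.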
